A study of Mus musculus with 9 samples.

Results

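TRAV14 is the subgroup of T cell receptor (TCR) alpha variable genes whose protein is known serologically as V-alpha 2 in the mouse. It was taken as every productive TRA contig whose first named V gene has the subgroup number 14, and each distinct combination of V gene, J gene and junction nucleotides was counted once per table. This gave 2108 TRAV14 rearrangements of 22252 TRA rearrangements in 8 tables of assembled contigs from single lymph node cells. A TCR alpha chain is made by joining a V gene to a J gene, and the joined stretch, called the junction, forms the loop that meets peptide. The TRA locus can rearrange repeatedly, each new join using a V gene farther upstream and a J gene farther downstream. In the mouse the V part of the locus holds duplicated blocks, whose copies carry the letters D and N in their names, so the subgroup has several near-identical members. V-alpha 2 chains are known to be more frequent in CD4 than in CD8 T cells of many mouse strains.

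The cells came from female 5xFAD and wild-type (WT) mice aged 10 to 11 months, from their inguinal lymph nodes (iLN) and from their deep and superficial cervical lymph nodes (dCLN and sCLN). 5xFAD is a transgenic mouse model of familial Alzheimer's disease whose transgenes are expressed in neurons from the Thy1 promoter. Each node and genotype gave 1 library, and the labels name no strain background and no number of animals. Hashtagged cell suspensions were combined before capture, per the labels' protocols. Of 3 further dCLN or mixed tables, 1 dCLN library titled CD4 and labelled WT was used, 1 that shared most of its barcodes with it and was labelled 5xFAD was left out, and 1 mixed all 3 node types and both genotypes. The labels call all cells immune cells and do not say how CD4 cells were obtained, and the contig tables hold no marker genes to check it. The tables used held 3458 to 13049 contigs and 1428 to 5750 distinct TRA rearrangements, with a median of 4 to 6 UMIs (unique molecular identifiers, 1 per captured transcript) per TRAV14 contig. Among other pairs of libraries at most 47 barcodes were shared, and 0 of them with the same TRAV14 junction. Intervals on single libraries below cover counting error only, and p-values over node types say nothing of the spread over animals.

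The subgroup was made of 13 V region sequences. Each was 267 nucleotides long from the first base of the mature V segment up to the junction, and together they accounted for 2179 of the 2192 TRAV14 contigs. Of the 13 remaining contigs, 11 were 1 base from the nearest of these. The 13 sequences differed from each other by 1 to 20 bases, at 43 positions, and each always carried the same V call. The call names a sequence here and was not always an exact match to the named allele. The deposited V identity was 1 in 57.3% to 64.9% of TRAV14 contigs in 5xFAD node libraries and 81.5% to 87.0% in WT ones. It was 1 in 80.5% in the CD4-titled library and 97.0% in the mixed table. Of the 13 sequences, 5 are printed because the genotype and copy results below turn on them. Capitals mark the positions at which any of the 13 sequences differ, and positions are counted from 1 at the first base. The most frequent V region in 5xFAD (TRAV14-1*02), the most frequent in WT (TRAV14D-2*01) and 3 others read as follows.
TRAV14-1*02: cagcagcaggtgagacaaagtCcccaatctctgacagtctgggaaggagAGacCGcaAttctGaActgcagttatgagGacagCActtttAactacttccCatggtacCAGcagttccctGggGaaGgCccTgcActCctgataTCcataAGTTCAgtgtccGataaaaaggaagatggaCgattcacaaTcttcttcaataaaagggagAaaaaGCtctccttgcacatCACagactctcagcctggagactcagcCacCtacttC
TRAV14D-2*01: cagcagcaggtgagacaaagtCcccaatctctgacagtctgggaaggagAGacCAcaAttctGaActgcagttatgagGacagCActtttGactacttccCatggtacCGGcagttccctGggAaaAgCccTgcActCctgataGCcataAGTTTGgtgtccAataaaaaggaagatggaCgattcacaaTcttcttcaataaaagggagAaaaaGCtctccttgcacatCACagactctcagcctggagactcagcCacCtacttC
TRAV14D-1*01,TRAV14N-1*01: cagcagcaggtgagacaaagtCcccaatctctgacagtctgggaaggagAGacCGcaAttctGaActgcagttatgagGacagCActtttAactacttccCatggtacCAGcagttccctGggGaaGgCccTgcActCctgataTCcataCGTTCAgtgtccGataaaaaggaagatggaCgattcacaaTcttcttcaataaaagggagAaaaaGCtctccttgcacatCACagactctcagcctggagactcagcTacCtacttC
TRAV14-1*01,TRAV14D-1*02: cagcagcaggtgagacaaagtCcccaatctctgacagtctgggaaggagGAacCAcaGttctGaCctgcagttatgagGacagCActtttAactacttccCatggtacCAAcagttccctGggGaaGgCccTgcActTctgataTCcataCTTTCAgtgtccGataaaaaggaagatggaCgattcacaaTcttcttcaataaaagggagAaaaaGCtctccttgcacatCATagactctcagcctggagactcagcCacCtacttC
TRAV14-1*01: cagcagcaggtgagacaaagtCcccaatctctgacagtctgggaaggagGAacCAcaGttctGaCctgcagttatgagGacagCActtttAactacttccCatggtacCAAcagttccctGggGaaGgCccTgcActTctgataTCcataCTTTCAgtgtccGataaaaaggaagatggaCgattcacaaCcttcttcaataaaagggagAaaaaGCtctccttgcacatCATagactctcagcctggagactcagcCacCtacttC

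TRAV14-1*02 stood 2 bases from TRAV14D-1*01,TRAV14N-1*01, by C151A and T258C from that sequence to TRAV14-1*02. The sequence called TRAV14-1*01,TRAV14D-1*02 stood 1 base from TRAV14-1*01, by C191T from TRAV14-1*01. The base changes TRAV14D-3/DV8*03 from TRAV14D-3/DV8*01,TRAV14N-3*01 were T22C and C181G, and TRAV14D-3/DV8*06 from TRAV14D-3/DV8*05 were T145G and T146C. The first complementarity-determining region (CDR1), a germline loop that faces the peptide and MHC molecule, had 3 forms, and CDR2 had 8. The forms of CDR1, with variable bases in capitals, were shared by 6, 4 and 3 of the V sequences and by 875, 654 and 566 rearrangements, in the order given.
The -3 copies: gagAacagTGcttttGac
The -1 copies: gagGacagCActtttAac
The -2 copies: gagGacagCActtttGac
CDR1 therefore followed the number after the hyphen in the gene name, whichever block or allele was called.

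The V region sequences differed between the genotypes. Of the 13 sequences, 7 were identical to TRAV14 genes of the GRCm38 reference genome (GENCODE M21 annotation), covering all 9 reference copies on chromosome 14, and 6 were not in it. In 5xFAD, 0 of 270 assigned TRAV14 rearrangements in dCLN, 0 of 252 in sCLN and 0 of 80 in iLN had a reference V region. A limit of 3 counts allows shares of up to 1.11%, 1.19% and 3.75%, and the exact 95% intervals end at 1.36%, 1.45% and 4.51%. In WT the reference sequences made up 82 of 148 in dCLN (55.4%, exact 95% interval 47.0 to 63.6), 66 of 119 in sCLN (55.5%, 46.1 to 64.6) and 111 of 199 in iLN (55.8%, 48.6 to 62.8). The WT share was thus level over the 3 node types, and the genotypes did not overlap. Over all TRA in WT, 660 of 1467, 651 of 1428 and 922 of 2070 lacked an exact reference V region, in node order. For TRAV14 in WT, 66 of 148, 53 of 119 and 88 of 199 did, a part near that of all TRA. Over all TRA in 5xFAD, 3093 of 3567, 2546 of 2926 and 1301 of 1532 did. Other subgroups thus held reference V regions in 5xFAD. Pooled over nodes, 0 of 602 TRAV14 rearrangements in 5xFAD and 259 of 466 in WT (55.6%) were reference sequences, at least 112-fold lower in 5xFAD when 3 counts stand for the 0. All 6 non-reference sequences were present in both genotypes. The genotype label and the germline V sequence of the TRA locus cannot be told apart in these libraries, for TRAV14 shares as for its J partners.

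**Figure D1:**
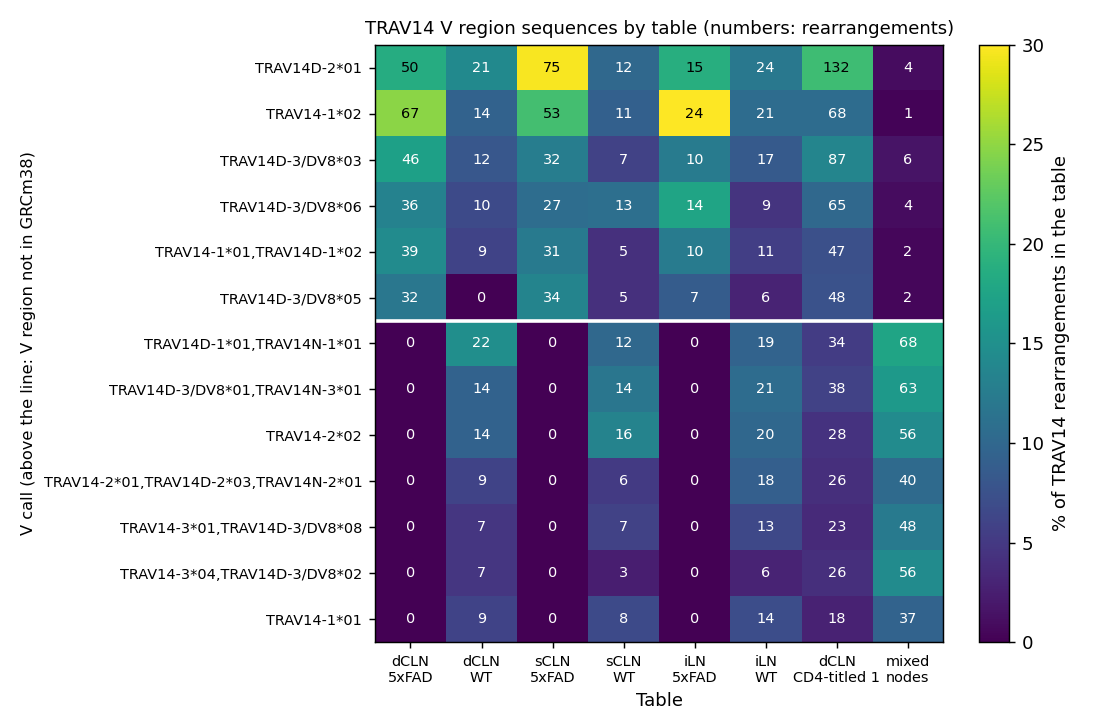
Number of TRAV14 rearrangements with each of the 13 V region sequences (vertical axis, by V call) in each table (horizontal axis), with the percentage of the table's TRAV14 rearrangements as colour. The 7 lower sequences, those in GRCm38, have 0 rearrangements in every 5xFAD library and at least 3 in every WT library, and most of those in the mixed table.

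The other tables lay on both sides of WT. In the CD4-titled library 193 of 640 TRAV14 rearrangements (30.2%, exact 95% interval 26.6 to 33.9) had a reference V region. Of the 387 in the mixed table, 368 did (95.1%, 92.4 to 97.02), above each of the 6 node libraries although its title names both genotypes. Among reference V regions, Trav14n-3 made up 19.7% in the CD4-titled library and 17.1% in the mixed table, against 19.1% ± 2.07 in WT nodes (SD, n = 3 node types). Trav14-1 made up 9.33% and 10.1% of them, against 11.9% ± 0.84 in WT nodes. Trav14-3 was at 13.5% and 15.2%, above each WT node library, against 6.16% ± 2.10 in WT nodes, and Trav14-2 at 14.5% and 15.2%, below each of them, against 19.8% ± 3.90. No test was made between these tables.

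Among non-reference V regions alone, the shares of the 6 sequences were compared between the genotypes. TRAV14-1*02 made up 24.8% in dCLN, 21.03% in sCLN and 30.0% in iLN of 5xFAD, against 21.2%, 20.8% and 23.9% in the same nodes of WT. All 3 node types had the higher share in 5xFAD (two-sided p = 0.25 by an exact permutation test that flips signs, the smallest that 3 node types allow). TRAV14D-2*01 made up 22.3% ± 6.43 in 5xFAD and 27.2% ± 4.59 in WT (SD, n = 3 node types each; exact p = 0.5). TRAV14D-3/DV8*05 made up 11.9%, 13.5% and 8.75% in dCLN, sCLN and iLN of 5xFAD, against 0%, 9.43% and 6.82% in WT. In dCLN of WT it was seen in 0 of 66 non-reference rearrangements, which allows up to 4.55% and lies below each 5xFAD library. Its difference was 5.95 percentage points, positive in 3 of 3 node types (exact p = 0.25). None of the 6 comparisons could pass a threshold of 0.05 in this design.

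Named by the first gene of the V call, TRAV14 fell into 6 copies. TRAV14-2, TRAV14-3 and TRAV14D-1 were each lower in 5xFAD, at 0 rearrangements in all 3 libraries. TRAV14-2 had 0, 0 and 0 rearrangements in dCLN, sCLN and iLN of 5xFAD, against 23, 22 and 38 in WT, at least 44.7-fold lower with a floor of 3 counts over the group. Its Benjamini-Hochberg adjusted p was 3.36e-12 (edgeR's quasi-likelihood test). TRAV14D-1 had 0 against 22, 12 and 19 in WT, at least 28.6-fold lower (edgeR adjusted p = 3.55e-08). TRAV14-3 had 0 against 14, 10 and 19 in WT, at least 23.2-fold lower (edgeR adjusted p = 2.3e-06). The groups did not overlap for any of the 3. These p-values, and those for whole V calls below, take the node libraries of a genotype as replicates. They do not measure the spread over animals. Without the dCLN library of WT, or with V calls naming 1 gene only, 1 copy passed, and without the dCLN library of 5xFAD 2 did. All calls of TRAV14D-1 and TRAV14-3 named more than 1 gene, so V calls naming 1 gene left both copies out. Of all 78 TRAV genes by first call, 24.4% passed an adjusted p of 0.05, against 3 of the 6 TRAV14 copies. TRAV14-1 made up 2.71% ± 0.37 of TRA rearrangements in 5xFAD and 2.03% ± 0.30 in WT, TRAV14D-2 1.68% ± 0.85 and 1.14% ± 0.30, and TRAV14D-3/DV8 2.84% ± 0.71 and 2.58% ± 0.14 (SD, n = 3 node types each), with edgeR adjusted p of 0.33, 0.39 and 0.78.

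The first gene of a call is not always the gene of the sequence. The V region called TRAV14-3*01,TRAV14D-3/DV8*08 was identical to reference Trav14d-3-dv8, that called TRAV14-3*04,TRAV14D-3/DV8*02 to Trav14-3, and that called TRAV14-2*01,TRAV14D-2*03,TRAV14N-2*01 to both Trav14d-2 and Trav14n-2. With the whole call in place of its first gene, an alternative chosen after seeing the data, 9 of 13 TRAV14 calls passed (edgeR, adjusted p under 0.05), against 51.7% of 120 TRAV calls. These were the 7 reference sequences, lower in 5xFAD, and 2 non-reference ones, higher in 5xFAD. TRAV14-1*02 had a log2 fold change of 0.93 ± 0.35 (SE, adjusted p = 0.016), with 144 rearrangements in 5xFAD and 46 in WT. TRAV14D-3/DV8*05 had one of 1.92 ± 0.62 (adjusted p = 0.0046), with 73 in 5xFAD and 11 in WT. These shares are of all TRA rearrangements, where the other V regions in WT are partly reference ones. TRA rearrangements without an exact reference V region were 3093 of 3567, 2546 of 2926 and 1301 of 1532 in dCLN, sCLN and iLN of 5xFAD. In WT they were 660 of 1467, 651 of 1428 and 922 of 2070. Any V region outside the reference thus starts from a larger pool in 5xFAD, and its part in the 2 higher calls was not tested. TRAV14 contigs had a V call naming more than 1 gene in 12.6% to 14.1% of contigs in 5xFAD libraries, 40.7% to 45.1% in WT libraries, 30.03% in the CD4-titled library and 71.5% in the mixed table.

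The share of TRAV14 in the repertoire was lower in 5xFAD in dCLN and iLN by more than counting error, but not in sCLN. TRAV14 made up 274 of 3567 TRA rearrangements in dCLN of 5xFAD (7.68%, exact Clopper-Pearson 95% interval 6.83 to 8.60), against 148 of 1467 in WT (10.1%, 8.59 to 11.7). In sCLN it made up 255 of 2926 in 5xFAD (8.71%, 7.72 to 9.80), against 119 of 1428 in WT (8.33%, 6.95 to 9.89). In iLN it made up 81 of 1532 in 5xFAD (5.29%, 4.22 to 6.53), against 199 of 2070 in WT (9.61%, 8.38 to 11.0). The iLN of 5xFAD was the lowest library and the dCLN of WT the highest of these 6, and sCLN of 5xFAD overlapped the WT libraries. TRAV14 had rank 4 in 4 of these libraries by size among the TRAV subgroups, rank 5 in sCLN of WT and rank 7 in iLN of 5xFAD.

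Over the 3 node types, TRAV14 averaged 7.23% ± 1.76 in 5xFAD and 9.35% ± 0.91 in WT (SD, n = 3 each), which the fit put at a log2 fold change of -0.39 ± 0.20 (SE; adjusted p = 0.30 by edgeR). This did not pass, and 0 of the 19 TRAV subgroups tested did (0% of features; 3 at an unadjusted p under 0.05, and with DESeq2 0 called and 4 unadjusted). Without either sCLN library the value was -0.59 and passed (edgeR adjusted p = 0.0053 without sCLN of 5xFAD and 0.0078 without sCLN of WT), and without either iLN library it was -0.17. With either library of a node left out, the other adds almost nothing to the genotype value. Both fits then rest on the remaining node types and are not separate checks. With V calls that name 1 gene only, which leave out more TRAV14 contigs in WT than in 5xFAD, the log2 fold change was -0.04. Among barcodes with 1 productive TRB chain and 1 or 2 TRA chains it was -0.26 (edgeR adjusted p = 0.35). On those barcodes TRAV14 made up 6.51% in iLN of 5xFAD and 9.63% in iLN of WT. Over all TRA rearrangements, the log2 ratio of shares, with a pseudocount of 0.5, was -0.40 in dCLN (95% counting interval -0.67 to -0.12), 0.06 in sCLN (-0.24 to 0.36) and -0.86 in iLN (-1.22 to -0.50). With TRA chains of exact reference V regions left out on both sides, which was added after seeing the data, the log2 fold change was -0.16 (edgeR adjusted p = 0.82). On those chains TRAV14 made up 8.86%, 10.02% and 6.23% in dCLN, sCLN and iLN of 5xFAD, against 10.0%, 8.14% and 9.54% in WT.

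**Figure D2:**
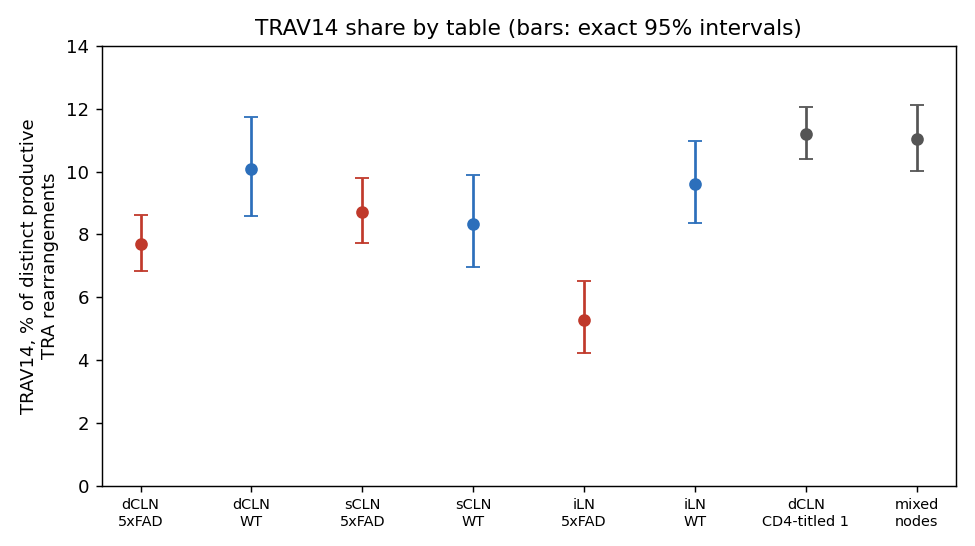
Share of TRAV14 among distinct productive TRA rearrangements (vertical axis, percent) in each table (horizontal axis), with exact 95% intervals as bars. In dCLN and iLN the 5xFAD library, at 7.68% and 5.29%, lies below the WT library, at 10.1% and 9.61%. The intervals of the 5xFAD and WT libraries overlap in sCLN and, at their ends, in dCLN, but not in iLN.

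Between nodes no difference was called. Fitted over both genotypes, TRAV14 had a log2 difference of 0.02 in dCLN over sCLN, 0.27 in dCLN over iLN and 0.25 in sCLN over iLN (edgeR adjusted p from 0.94 to 0.99). In each of the 3 contrasts 0% of 19 subgroups passed with edgeR or with DESeq2, with 0 at an unadjusted p under 0.05. The subgroups whose log2 share moved most like that of TRAV14 over the 6 libraries, among those with a mean of at least 20 rearrangements, were TRAV12 (Pearson r = 0.96), TRAV3 (r = 0.86) and TRAV16 (r = 0.82). These are descriptions over 6 libraries of different depth whose shares sum to 100%. TRAV12 made up 7.04%, 7.96% and 5.74% in dCLN, sCLN and iLN of 5xFAD, and 10.1%, 8.40% and 8.94% in WT, so it shared with TRAV14 the low iLN library of 5xFAD.

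The CD4-titled library had the highest TRAV14 share of the 8 tables. It stood at 644 of 5750 rearrangements (11.2%, exact 95% interval 10.4 to 12.04), with rank 3 among subgroups, against 7.68% in dCLN of 5xFAD and 10.1% in dCLN of WT. The difference was 3.52 percentage points from the 5xFAD library, whose interval did not overlap, and 1.11 points from the WT library, whose interval did. The mixed table, whose title names no CD4 cells, stood at 388 of 3512 (11.05%, 10.03 to 12.1), level with it. With 1 library on each side no test was made. The CD4-titled library shared 6829 barcodes with the one labelled 5xFAD, so its WT label does not settle its genotype. Neither dCLN library can therefore be taken as its match in genotype. These tables also differed from the dCLN libraries in their share of reference V regions, as given above, and its part in the TRAV14 share was not tested. Leaving out V calls that name more than 1 gene made the differences 2.55 and 2.52 points.

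Partner TRAJ genes followed the copy of TRAV14. TRAJ numbers fall along the chromosome from the V side of the J cluster to the constant gene, so a high number is a J gene near the V genes. Among reference sequences, the copies nearest the J cluster, Trav14-1, Trav14-2 and Trav14-3 (GRCm38 chr14:53554022-53763694, plus strand), joined TRAJ genes with mean numbers of 34.7, 37.1 and 45.9 over all 8 tables. The copies farther away, in the D and N blocks (chr14:52855614-53370575), had means of 22.7 for Trav14d-3-dv8, 23.8 for Trav14d-2 and Trav14n-2, 24.3 for Trav14n-3 and 26.0 for Trav14d-1 and Trav14n-1. The nearer copies had a higher mean than the farther ones in each of the 5 tables with reference sequences: 42.2 and 24.9 in dCLN, 37.4 and 21.03 in sCLN and 38.6 and 25.8 in iLN of WT, 38.01 and 25.4 in the CD4-titled library, and 39.6 and 23.9 in the mixed table. The mean difference was 14.9 ± 2.13 J gene numbers (SD, n = 5 tables; two-sided exact permutation p = 0.0625 by flipping signs, the smallest that 5 tables allow). Of Trav14-3 rearrangements 78.6% used TRAJ40 or a higher number, against 10.7% of those of Trav14n-3, whose CDR1 is the same.

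The non-reference sequences also differed in J use. TRAV14D-3/DV8*05 had a mean TRAJ number of 44.6 ± 1.5 over 6 tables (SD), TRAV14D-3/DV8*06 39.0 ± 1.98 over 7, TRAV14-1*02 33.7 ± 2.32 over 7, TRAV14-1*01,TRAV14D-1*02 33.6 ± 4.83 over 7, TRAV14D-2*01 29.8 ± 1.60 over 7 and TRAV14D-3/DV8*03 23.4 ± 5.95 over 8, in tables with at least 5 rearrangements. The first and last of these carry the same gene name in the call and the same CDR1, and their table means did not overlap, at 42.4 to 46.0 for *05 and 9.17 to 27.5 for *03. The lowest of the *03 means, in the mixed table, rests on 6 rearrangements. In 5xFAD the *05 means were 44.6, 45.7 and 45.6 in dCLN, sCLN and iLN, and in WT they were 42.4 in sCLN and 46.0 in iLN. The position of these non-reference genes is not in the reference used here, so no distance was set beside their J use.

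**Figure D3:**
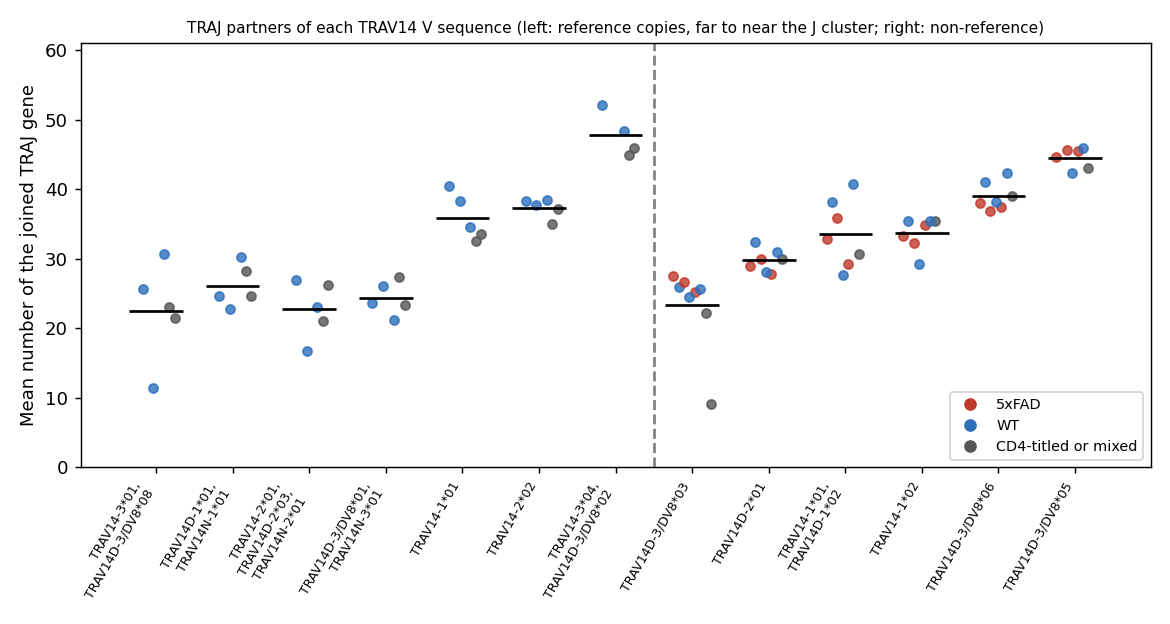
Mean number of the joined TRAJ gene (vertical axis) for each TRAV14 V sequence (horizontal axis), 1 point per table with at least 5 rearrangements and a line at the mean of the tables. Left of the dashed line, reference copies run from far to near the J cluster, with the nearest at 45.0 to 52.1; right of it, the non-reference sequences run from 23.4 to 44.6.

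The alleles of the J genes went with the V set. In WT, 4 TRAJ genes with a pair of alleles called (TRAJ9, TRAJ31, TRAJ32 and TRAJ34) were joined in 60 TRAV14 rearrangements, and 56 of these carried the allele most frequent in their own V set, with 4 exceptions. For TRAJ34, 9 of 9 non-reference V regions in WT had TRAJ34*01 and 10 of 10 reference ones had TRAJ34*02. In 5xFAD all 20 TRAJ34 joins had TRAJ34*01. For these 4 genes together, 5 of 72 joins in 5xFAD carried the allele most frequent with the WT reference V regions, all of them TRAJ31*01.

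Over all its copies, TRAV14 had no TRAJ gene called higher or lower than in other V subgroups. The mean TRAJ number was 32.3 ± 1.5 for TRAV14 and 31.2 ± 0.77 for other TRA (SD, n = 6 libraries), higher for TRAV14 in 5 of 6 libraries (two-sided exact permutation p = 0.0625; 0.31 adjusted over 5 measures), sCLN of WT being the exception at 29.5 for TRAV14 and 30.3 for other TRA. Of 42 TRAJ genes 0% passed (edgeR, 2 at an unadjusted p under 0.05, TRAJ45 and TRAJ2; DESeq2 0, with 1 unadjusted). The fitted values were positive for 24 and negative for 18 genes. TRAJ45 made up 3.77% ± 1.09 of TRAV14 and 2.71% ± 0.58 of other TRA rearrangements (SD, n = 6), higher in 5 of 6 libraries, with a fitted log2 fold change of 0.52 (adjusted p = 0.43 by edgeR). TRAJ40 had a value of 0.28, TRAJ37 of 0.26 and TRAJ27 of 0.12, and TRAJ32 of -0.59, TRAJ30 of -0.58 and TRAJ18 of -0.44. TRAJ45 and these genes were picked among those with the same direction in at least 5 of 6 libraries. TRAJ18, the J gene of the invariant chain of natural killer T cells, which pairs there with another V gene, made up 2.27% ± 1.38 of TRAV14 and 2.77% ± 0.17 of other TRA. TRAJ31 was the most frequent partner, at 5.27% ± 1.36 of TRAV14 and 4.82% ± 0.67 of other TRA.

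Within TRAV14, J use was compared between the genotypes. The mean TRAJ number was 33.5, 33.5 and 32.8 in dCLN, sCLN and iLN of 5xFAD, against 32.5, 29.5 and 32.2 in WT, higher in 5xFAD in 3 of 3 node types by a mean of 1.92 (exact p = 0.25). Without sCLN the mean difference of TRAV14 was 0.86. Other TRA were also higher in 5xFAD in each node type, at 31.5, 32.3 and 31.7, against 31.2, 30.3 and 30.4 in WT. The rise was thus not particular to TRAV14. Among non-reference TRAV14 V regions alone the mean TRAJ number was 33.4 ± 0.28 in 5xFAD and 33.3 ± 1.46 in WT, a difference of 0.02, higher in 1 of 3 node types (exact p = 1.0). Within the WT libraries, non-reference V regions had a mean TRAJ number of 33.3 ± 1.46 and reference ones of 29.8 ± 1.85 (SD, n = 3 node types), higher in 3 of 3 (exact p = 0.25). With the CD4-titled and mixed tables added it was higher in 4 of 5 (exact p = 0.44), the mixed table being lower. Of 38 TRAJ genes 0% passed between the genotypes (edgeR and DESeq2, 0 at an unadjusted p under 0.05 in each). TRAJ57 made up 3.27% ± 1.52 in 5xFAD and 1.40% ± 1.28 in WT, TRAJ49 5.64% ± 1.78 and 3.36% ± 0.66, TRAJ12 2.07% ± 1.26 and 3.81% ± 1.08, TRAJ37 2.65% ± 1.37 and 4.09% ± 1.23, TRAJ22 3.60% ± 0.99 and 5.94% ± 1.83, TRAJ7 1.92% ± 0.66 and 2.47% ± 0.94, and TRAJ34 3.53% ± 1.27 and 4.09% ± 1.23 (SD, n = 3 node types each). These 7 were picked among genes with the same direction in 3 of 3 node types, so that agreement is not a result. Each had an edgeR adjusted p of 0.88.

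Junction lengths of TRAV14 were compared with those of other V subgroups. The mean length was 40.2 ± 0.47 nucleotides for TRAV14 and 40.5 ± 0.22 for other TRA (SD, n = 6 libraries), a difference of -0.24 that was negative in 5 of 6 libraries (exact p = 0.41). The exception was iLN of 5xFAD, at 41.2 for TRAV14 and 40.2 for other TRA. Without iLN of 5xFAD the difference was -0.48 (exact p = 0.0625), and without sCLN of 5xFAD it was -0.14. The standard deviation of TRAV14 lengths over rearrangements was 3.18 to 3.73 nucleotides per library. Of the 11 to 14 other subgroups with at least 20 rearrangements in a library, 0 to 2 had a lower one, and their medians were 3.72 to 4.04. Of TRAV14 junctions 30.9% were 39 and 34.3% were 42 nucleotides long, against 26.5% and 29.2% of other TRA, and 10.4% against 15.1% were 45 long.

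**Figure D4:**
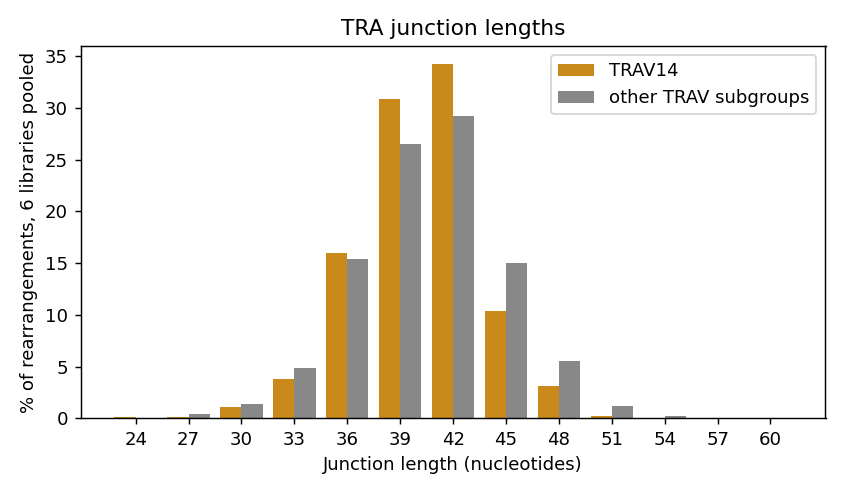
Percentage of rearrangements (vertical axis) by junction length in nucleotides (horizontal axis), for TRAV14 and for other TRAV subgroups, with the 6 node libraries pooled. TRAV14 is more concentrated at 39 and 42 nucleotides, with 30.9% and 34.3%, and lower at 45, with 10.4%.

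Between the genotypes TRAV14 junctions averaged 40.01, 40.1 and 41.2 nucleotides in dCLN, sCLN and iLN of 5xFAD, against 40.1, 39.98 and 40.04 in WT (exact p = 0.5). Bases between the aligned ends of V and J, called added bases here, averaged 3.11, 2.86 and 2.95 in 5xFAD and 2.38, 2.48 and 2.48 in WT, so the groups did not overlap. Other TRA did not overlap either, with 2.72, 2.81 and 2.68 added bases in 5xFAD and 2.60, 2.67 and 2.67 in WT. The TRAV14 means were 2.97 ± 0.13 in 5xFAD and 2.44 ± 0.06 in WT (SD, n = 3 libraries each), and every node type was higher in 5xFAD (exact p = 0.25; 0.42 adjusted over 5 measures). TRAV14 rearrangements without added bases made up 14.7% ± 1.10 in 5xFAD and 19.2% ± 3.26 in WT, lower in 3 of 3 (exact p = 0.25). The number of added bases depends on which germline allele the ends were aligned to. Non-reference V regions had more added bases than reference ones in 5 of 5 tables, at 2.73 ± 0.14 and 2.39 ± 0.17 (SD; exact p = 0.0625). Among non-reference V regions alone they averaged 2.97 ± 0.12 in 5xFAD and 2.65 ± 0.09 in WT, higher in 3 of 3 (exact p = 0.25). Over all 6 libraries TRAV14 and other TRA had 2.71 ± 0.30 and 2.69 ± 0.07 added bases (exact p = 0.84).

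Some TRAV14 junctions recurred. Of 1832 distinct junction sequences, 1668 were in 1 table, 130 in a pair of tables, 22 in 3, 10 in 4, 1 in 6 and 1 in 7. Those in the most tables, with ties ordered by contigs and then by sequence, are printed with the bases from the V gene in capitals, since they recurred across libraries.
TRAJ22 junction, in 7 tables: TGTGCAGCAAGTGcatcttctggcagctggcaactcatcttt
TRAJ13 junction, in 6 tables: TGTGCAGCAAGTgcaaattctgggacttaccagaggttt
TRAJ34 junction, in 4 tables: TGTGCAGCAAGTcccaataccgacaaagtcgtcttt
TRAJ16 junction, in 4 tables: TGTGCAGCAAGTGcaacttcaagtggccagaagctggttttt
TRAJ50 junction, in 4 tables: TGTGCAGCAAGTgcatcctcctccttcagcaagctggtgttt
TRAJ53 junction, in 4 tables: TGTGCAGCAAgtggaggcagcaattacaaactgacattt
The TRAJ22 junction was carried by 24 contigs with 9 of the 13 V sequences, and of the 8 tables iLN of 5xFAD was the 1 without it. It had 0 or 1 added base, depending on the V sequence it was aligned to. The TRAJ13 junction was carried by 9 contigs with 5 V sequences. Of the 12 junctions in 4 or more tables, 8 had at least 1 contig aligned without added bases. Between the genotypes, 39 junctions were in both a 5xFAD and a WT node library, 6.76% of the 577 in 5xFAD and 8.88% of the 439 in WT. As 7 V sequences are reference ones, the 9 behind the TRAJ22 junction include both sets.

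Clones of TRAV14 cells were small. Barcodes with exactly 1 productive TRB chain, and either 1 or 2 TRA chains, were used as cells. Those with more TRB or TRA chains, 1.45% to 5.58% of barcodes per table, were set aside as possible doublets, and no other doublet caller was run. Barcodes without a productive TRB chain, or without a productive TRA chain, were not used either. The cells used were 1151 of 2772 barcodes in iLN of 5xFAD, the lowest part of any table. They were 4930 of 6901 in the CD4-titled library, the highest. A clone was 2 or more cells with the same V, J and junction in both chains. In 5xFAD, 4 of 234 TRAV14 cells in dCLN, 8 of 224 in sCLN and 0 of 77 in iLN were in clones (1.71%, 3.57% and 0%), against 10 of 130, 2 of 96 and 6 of 172 in WT (7.69%, 2.08% and 3.49%). For cells without TRAV14 the shares were 1.12%, 3.62% and 1.68% in 5xFAD, and 8.75%, 6.91% and 2.97% in WT. The largest TRAV14 clone had 2 cells in the node libraries and 3 in the CD4-titled library, where 40 of 601 TRAV14 cells were in clones (6.66%) against 4.50% of its other cells. A pair of different TRAV14 chains was found in 7 barcodes over the 8 tables, barcodes set aside included.

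Beta partners of TRAV14 were compared over distinct paired clonotypes. TRBV3 was the only one of the TRBV genes named here with a higher share in TRAV14 cells in all 6 libraries, but no TRBV gene passed the test. TRBV3 made up 6.90%, 11.4% and 3.90% of TRAV14 clonotypes in dCLN, sCLN and iLN of 5xFAD, and 8.0%, 5.26% and 6.51% in WT. Among clonotypes without TRAV14 it made up 5.89%, 7.07% and 3.66% in 5xFAD, and 4.77%, 3.23% and 3.68% in WT. Its fitted log2 fold change was 0.56 ± 0.23 (SE; adjusted p = 0.15 by edgeR). The CD4-titled library, not used in that fit, had 10.2% for TRAV14 and 7.22% for other clonotypes, and the mixed table had 12.8% and 7.53%, the same direction.

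TRBV13-1, a gene of the V-beta 8 family, made up 11.8% ± 3.93 of TRAV14 and 8.52% ± 1.30 of other clonotypes (SD, n = 6 libraries), higher in 5 of 6, fitted at a log2 fold change of 0.40 (adjusted p = 0.15 by edgeR). In the CD4-titled library it was at 6.74% and 5.96%, and in the mixed table at 5.04% and 7.69%, the other direction. TRBV14 made up 2.11% ± 1.30 of TRAV14 and 4.24% ± 0.43 of other clonotypes, lower in 6 of 6, fitted at a log2 fold change of -0.93 ± 0.36 (SE; adjusted p = 0.15 by edgeR). It was lower in the CD4-titled library too, at 0.69% and 2.37%, and in the mixed table, at 2.97% and 4.29%. TRBV3, TRBV13-1 and TRBV14 were picked among genes with the same direction in at least 5 of 6 libraries. Of 21 TRBV genes 0% passed with edgeR (3 at an unadjusted p under 0.05, those named here) or DESeq2 (3 unadjusted). Values were positive for 10 and negative for 11 genes, with a median of -0.03. Within TRAV14, 0% of 19 TRBV genes passed between the genotypes (0 at an unadjusted p under 0.05 with either tool). TRBV14 made up 1.19% ± 1.14 of TRAV14 clonotypes in 5xFAD and 3.04% ± 0.58 in WT, and TRBV20 1.91% ± 1.66 and 4.41% ± 1.78 (SD, n = 3 node types each; edgeR adjusted p = 0.997). Both were lower in 3 of 3, which the rule for naming them requires. These counts were 20 and 29 clonotypes over 6 libraries.

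**Figure D5:**
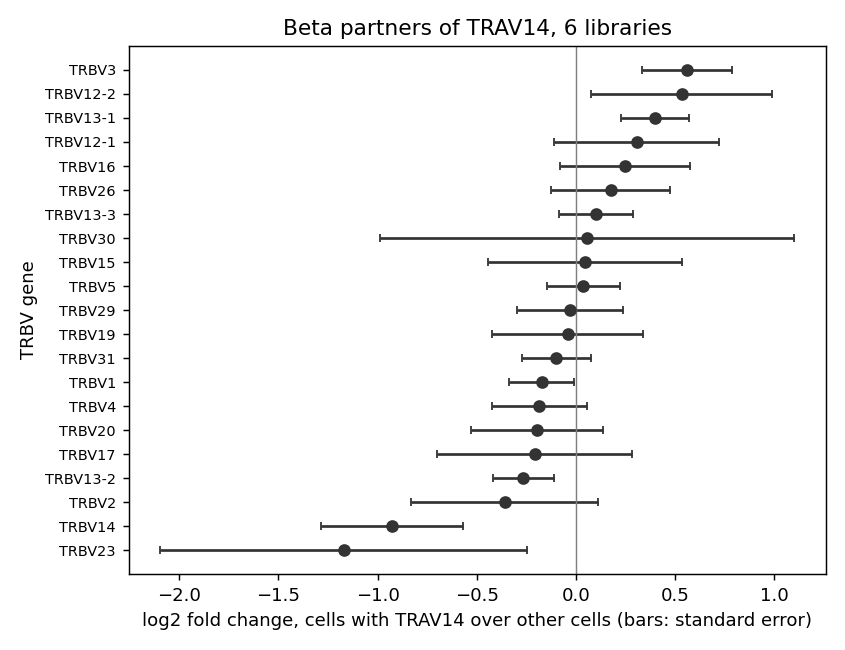
Fitted log2 fold change (horizontal axis) of each TRBV gene (vertical axis) between cells with TRAV14 and other cells over 6 libraries, with the standard error as bars. TRBV3, at 0.56, and TRBV14, at -0.93, lie farthest from 0 relative to their standard errors, and no gene passed an adjusted p of 0.05.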

How the data were processed

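Single-cell V(D)J libraries of 9 samples were deposited as 1 contig table each, of which 8 were used. The submitters' processing notes name the mm10 build, Seurat 4.1.0 and Cell Ranger 6.0.1 without saying what each did. V and J calls, junctions and alignments were in the tables, per the file headers. The deposited counts are raw UMI and read counts per contig, as the headers name them. V identity was deposited as a fraction of the aligned bases, per the file headers. Junction and added-base lengths are in nucleotides. The 6 node libraries listed productive contigs only. The members and lists, and the named-gene rule, were chosen with earlier results of these data known.

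Productive TRA chains were reduced to distinct V gene, J gene and junction per table. Counts per feature with at least 10 over the libraries fitted were tested with edgeR 4.0.16 (quasi-likelihood) in R 4.3.3, on node type and genotype, or on library and chain set, with library totals as offset, and adjusted by the Benjamini-Hochberg method over all features at a threshold of 0.05. The fits were also run on simulated counts with the same fold change in every library of a group. Differences that vary between nodes were not simulated, so those runs do not cover them. Each node and genotype had 1 library, so the spread came from how differences vary over 3 node types. Single values were compared with exact two-sided sign-flip permutation tests (smallest p 0.25, 0.0625 and 0.03125 for 3, 5 and 6 pairs). Shares have Clopper-Pearson intervals. DESeq2 1.42.0 was an alternative. Named TRAJ and TRBV genes were those past the threshold, then up to 5 with the largest fitted change each way among genes with at least 20 members and the same direction in at least 5 of 6 libraries, or 3 of 3 node types for genotype. V regions were matched to GENCODE M21 transcripts as exact sequences, with Python 3.11.15, pandas 2.3.3 and SciPy 1.17.1.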

Additional observations from a re-analysis of the deposited data

Results flagged for a closer look

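The genotype difference in TRAV14 share had opposite signs in sCLN and the other nodes. The log2 ratio of 5xFAD over WT was -0.40 in dCLN, 0.06 in sCLN and -0.86 in iLN. The ratio in dCLN minus that in sCLN was -0.46 (95% counting interval -0.86 to -0.05), and the ratio in sCLN minus that in iLN was 0.92 (0.45 to 1.39). The intervals cover counting error of single libraries, and the difference between nodes was not tested over samples.

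The mean TRAV14 junction length also had opposite signs. The difference of 5xFAD minus WT was -0.05 nucleotides in dCLN, 0.11 in sCLN and 1.14 in iLN. The value in dCLN minus that in sCLN was -0.16 nucleotides, and that in dCLN minus iLN was -1.19. These differences were not tested.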

How the results depend on the processing

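Over 15 results and 126 alternative values, 117 kept their direction and their side of the threshold or, for counts of calls, stayed within 1.5 times the count reported. Exact tests over 3 node types, or with 1 of 6 libraries left out, cannot pass 0.05, so only their direction could change. Values that shrank with the same sign also counted as kept. An example is the mean TRAJ number of TRAV14, from 1.92 to 0.02 among non-reference V regions. The TRAV14 share in 5xFAD over WT ran from -0.59 to -0.17 (log2) when each library was left out. It passed without either sCLN library, at -0.59, and was -0.04 with V calls of 1 gene only. Between nodes the values turned sign with 1 library left out, running from -0.27 to 0.39 for dCLN over sCLN, -0.051 to 0.64 for dCLN over iLN and -0.11 to 0.62 for sCLN over iLN. The number of TRAV14 copies called was 1 to 3 when each library was left out (1 without dCLN of WT), 1 with V calls of 1 gene, and 9 of 13 with whole calls. V calls of 1 gene leave out TRAV14D-1 and TRAV14-3, whose calls all name more than 1 gene, so neither could be called there. They also leave out 40.7% to 45.1% of TRAV14 contigs in WT libraries, against 12.6% to 14.1% in 5xFAD. The part of this in the TRAV14 share, and the cause of the other changes, was not tested. The mean TRAJ number of TRAV14 in 5xFAD minus WT ran from 0.86 to 2.55 with each node type left out, and the junction length of TRAV14 minus other TRA from -0.48 to -0.14 with each library left out. Genotypes were paired by node type in the fits and exact tests; no pairing by replicate was possible because each group has 1 library. Each node library had 81 to 274 TRAV14 rearrangements.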

Other observations

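Of the 7 barcodes with a pair of TRAV14 chains, 4 joined a non-reference with a reference V region, 3 of them in the CD4-titled library and 1 in the mixed table. A pair of reference V regions was found in 1 barcode each of iLN of WT and of the mixed table, and a pair of non-reference ones in 1 barcode of sCLN of 5xFAD. Nonproductive contigs were listed for 2 tables only, where TRAV14 held 2 of 37 in the CD4-titled library and 3 of 32 in the mixed table.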
